A study of Mus musculus with 36 samples.

Results

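The comparison is PAM, the ligand of Toll-like receptor 2 (TLR2) in this series, against depleted zymosan, without the unstimulated control in the contrast. It rests on 4 of the 36 libraries of the series: the 2 labelled PAM (group P, libraries P_1 and P_2) and the 2 labelled as zymosan depleted (group Z, libraries Z_1 and Z_2). Chromatin accessibility was assayed with ATAC-seq: a transposase inserts adapters where DNA is open, and reads were counted in 119751 peaks shared by all libraries. The cells were dendritic cells grown with 15 ng/mL GM-CSF from bone marrow of female C57BL/6J mice aged 6 to 8 weeks, and every stimulation lasted 6 h. A further pair of groups held the same pair of ligands together with the agent labelled SeV: PS (PAM and SeV) and ZS (depleted zymosan and SeV), again with 2 libraries each. The unstimulated control (Ctrl, 2 libraries) is given as the background level. Ligand doses, what the zymosan was depleted of, and whether the 2 libraries of a group came from separate cultures or animals are not given in the sources used here, so p-values measure the spread between libraries, which may be technical. Such cultures are a mixture of dendritic cells and macrophage-like cells, and fewer cells of a type and less accessibility per cell cannot be told apart in them.

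TLR2 sits at the cell surface, recognises bacterial and fungal lipoproteins and signals through the adaptor MyD88 and the IRAK kinases to NF-kappaB and AP-1. Zymosan is a yeast cell wall preparation whose beta-glucan is bound by Dectin-1 (Clec7a), which signals through the kinase Syk and the CARD9, BCL10 and MALT1 complex to NF-kappaB, and whose other components can also engage TLR2. In dendritic cells both routes open enhancers and promoters of cytokine and chemokine genes, whereas interferon-stimulated genes are opened through interferon regulatory factors and STAT proteins.

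The libraries of the comparison differed in their mitochondrial share, the part of all counts that fell in a single peak spanning the mitochondrial genome. It was 50.5% in P_1 and 48.5% in P_2, against 62.4% in Z_1 and 60.9% in Z_2, and the groups did not overlap. In the groups with SeV it was 46.6% and 45.0% in PS and 58.1% and 51.0% in ZS, so that ZS_2 lay close to P. Outside that peak P_1 and P_2 held 12583770 and 12966927 counts and Z_1 and Z_2 held 9395816 and 11385764. The 24 highest of the remaining peaks were a set chosen after the counts were seen (mean above 300 CPM, counts scaled to a common library total). Summed, they ordered the groups in a similar way, with 24.7% and 22.9% of these counts in P and 39.2% and 36.2% in Z. They held 21.7% and 20.1% in PS and 34.4% and 28.3% in ZS. Most of the sum was 1 peak (chr1:24611386-24616337), with 17.1% and 15.7% in P and 27.5% and 25.7% in Z. Some of the others did not follow the mitochondrial share: the peak at chr9:2999874-3038397 held 1.55% in ZS_1 and 1.76% in ZS_2. Of these 24 peaks, 23 were called lower in P (edgeR adjusted p under 0.05, as for 5.99% of all tested peaks) and 0 higher. The Pearson correlation of log2 CPM across peaks was 0.938 between the P libraries, 0.913 between the Z libraries and 0.882 to 0.893 across the groups. Replicates differed beyond sampling noise (chi-square per degree of freedom 2.63 in P and 2.29 in Z), so each was counted as its own sample. Myeloid and dendritic cell markers had 18 peaks within 1 kb of a gene start with a summed level of 251 to 271 CPM in P and 251 to 252 CPM in Z. Of these 18, 1 was called higher and 1 lower in P, 13 had a positive difference and the median log2 difference was 0.40 (-0.03 with the mitochondrial share as a covariate), against -0.14 over all peaks at gene starts.

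**Figure D1:**
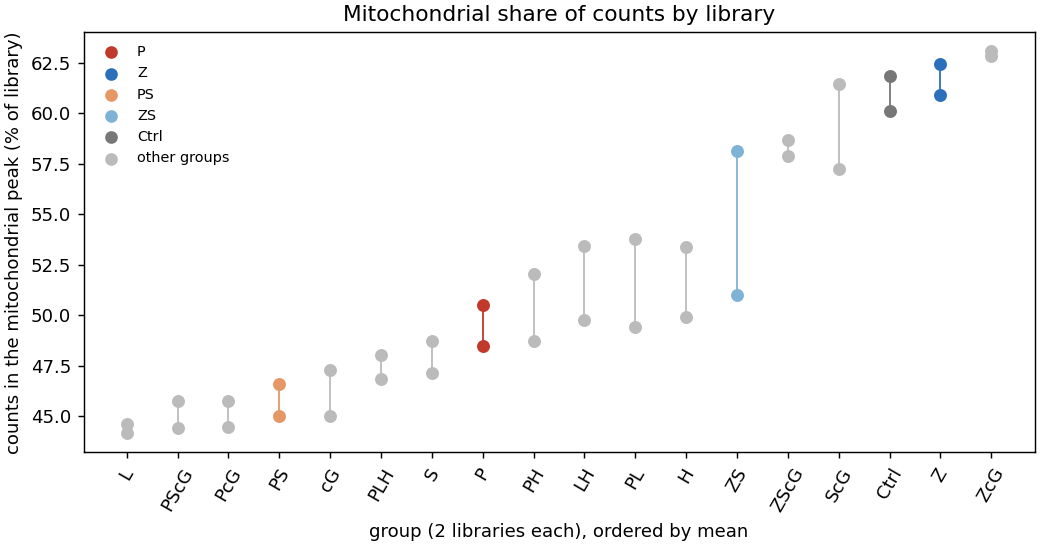
Share of each library's counts in the mitochondrial peak (y axis, percent) for the 18 groups of 2 libraries, ordered by mean (x axis); each point is 1 library. P lies at 48.5% to 50.5%, Z at 60.9% to 62.4%, and the ZS libraries lie apart at 58.1% and 51.0%.

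The cells given PAM and those given depleted zymosan differed at many peaks, in both directions. Of 119464 peaks tested, 13262 were called different between P and Z (11.1% of the tested peaks, edgeR's quasi-likelihood test, adjusted p under 0.05). Of these, 6109 were higher in P (5.11%) and 7153 were lower in P (5.99%). A fitted difference of at least 1 on the log2 scale was reached by 4010 of the higher and 2986 of the lower peaks. Across all tested peaks the 2 P libraries lay beyond the 2 Z libraries, in one direction or the other, at 50.2% of peaks, which is the background for any statement below that groups did not overlap. The split depends on the scaling: when libraries were scaled by their total counts outside the mitochondrial peak, 18592 peaks were called higher and 1914 lower, and the median log2 difference of all peaks moved by 0.35. With the 24 highest peaks left out, total scaling called 7492 higher and 5558 lower and the median was 0.05, and TMM called 6337 higher and 6737 lower. All differences below use TMM scaling, that is, they are relative to the bulk of peaks.

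**Figure D2:**
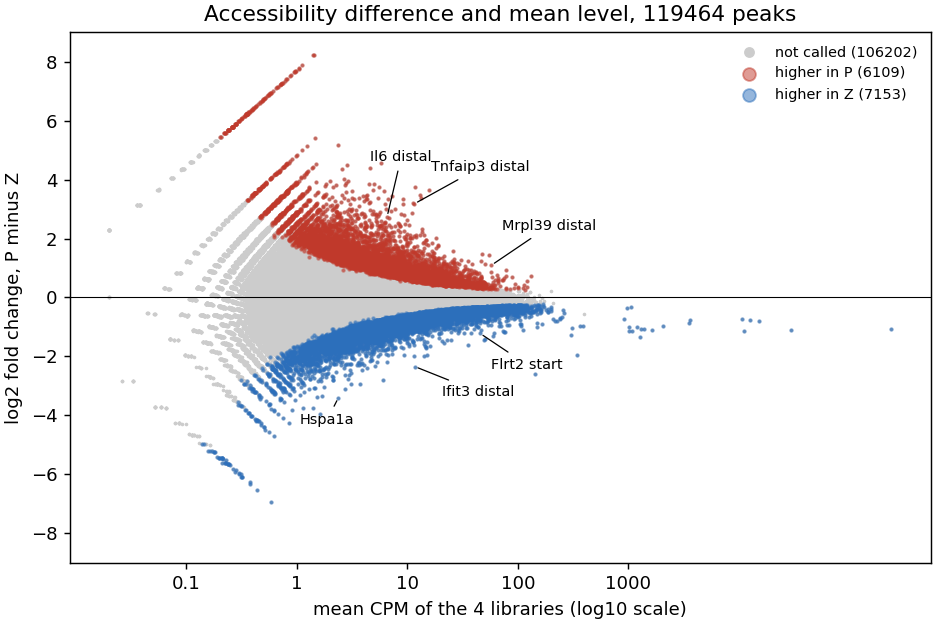
Log2 fold change P minus Z (y axis) against the mean CPM of the 4 libraries (x axis, log10 scale) for the 119464 tested peaks; each point is a peak, grey where not called, coloured for the 6109 called higher in P and the 7153 called higher in Z. Calls in both directions are seen over most of the range, while of the 24 peaks with the highest mean over all libraries 23 are called lower in P and 0 higher.

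With the library's mitochondrial share as a covariate in the same fit, 1630 peaks were called, 800 higher and 830 lower, of which 1513 were among the 13262. The sign was the same at 99.0% of the 13262 called peaks and at 77.5% of all tested peaks. The called peaks were chosen for their difference in these same counts, so their higher share carries no test. The median standard error of the called peaks rose from 0.33 to 0.57 for those higher in P and from 0.23 to 0.38 for those lower. The group with the ligand labelled HMW (H) had mitochondrial shares of 49.9% and 53.4%, close to those of P. On the log scale its mean lay nearer to Z than to P at 75.1% of the peaks higher in P, at 53.0% of those lower in P and at 54.2% of all peaks. The control, with mitochondrial shares of 61.9% and 60.1%, lay nearer to Z at 82.4%, 73.8% and 58.7%. The peaks were chosen for a difference between P and Z, so these shares carry no test. The part of the mitochondrial share in the calls cannot be told apart from that of the ligand within these 4 libraries.

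Peaks of the 2 directions lay in different places. Of the peaks higher in P, 7.02% lay within 1 kb of the start of a protein-coding gene, against 32.1% of the peaks lower in P and 13.3% of all tested peaks. Seen the other way, 2.69% of the 15936 peaks at gene starts were called higher and 14.4% lower, with a median log2 difference of -0.14. Gene-start peaks held 30.4% and 30.1% of the counts in P and 25.8% and 27.6% in Z. These totals include the 24 highest peaks, which held 24.7% and 22.9% of them in P and 39.2% and 36.2% in Z. The lower share in Z therefore does not show less signal at gene starts relative to the bulk of peaks. Lower peaks were also wider (median 784 bp, against 604 bp for higher peaks and 451 bp for all). Their level was higher too, with a median of 8.76 CPM against 4.63 CPM for higher peaks and 2.12 CPM for all. Small differences are called more readily at higher levels, and the part of level in these positions was not tested. Positions were not recounted under total-count scaling, which moved the median log2 difference of all peaks by 0.35. The unstimulated level helps to read the direction. At the peaks higher in P, the control mean lay below both groups at 3123 and between them at 2805, and above both at 181. At the peaks lower in P, it lay between the groups at 4381, above both at 2320 (32.4%) and below both at 452. Over all tested peaks it lay below both at 33.9%, between them at 30.3% and above both at 35.8%.

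At inflammatory cytokine and chemokine genes most called peaks were higher with PAM. All 21 listed genes had a peak within 1 kb of their start, 36 peaks in all, of which 12 at 11 genes were called higher in P and 1 lower, against 2.69% higher and 14.4% lower among all peaks at gene starts. The other 23 were not called, and the median log2 difference over the 36 was 0.26 (-0.14 over all peaks at gene starts, and 0.40 over those of the myeloid and dendritic cell markers). For genes whose strand the gene table does not give, such as Il23a, Csf3, Ccl4, Ccl5 and Nos2 here, either end of the gene stood in for the start. Il6, the cytokine of the acute phase response, had 19.9 and 20.7 CPM in P and 11.9 and 8.71 CPM in Z at its start (chr5:30012594-30013781), a log2 difference of 0.99 ± 0.16 (SE, edgeR adjusted p = 7.5e-07). Il23a, the subunit that makes interleukin-23 with Il12b, had 28.2 and 30.0 CPM in P against 13.4 and 15.8 CPM in Z (0.98 ± 0.14, edgeR adjusted p = 4.0e-08). Ccl5, a chemokine for T cells, had 11.4 and 13.5 CPM in P against 4.86 and 7.03 CPM in Z at a peak of 6 kb that overlaps the gene (1.04 ± 0.17, edgeR adjusted p = 8.0e-07). At these 3 genes both P libraries were above both Z libraries, and the control, at 6.88 and 8.88 CPM for Il6, 10.1 and 11.9 CPM for Il23a and 5.14 and 4.44 CPM for Ccl5, was below or overlapped the Z level. Ccl4, a chemokine for monocytes, had 16.8 and 18.5 CPM in P and 9.19 and 10.5 CPM in Z (0.84 ± 0.16). With the mitochondrial covariate, Il6 (0.80 ± 0.26, edgeR adjusted p = 0.10) and Il23a (0.78 ± 0.24, edgeR adjusted p = 0.082) no longer passed. Ccl5 (1.24 ± 0.23, edgeR adjusted p = 2.7e-04) and Ccl4 (0.98 ± 0.25, edgeR adjusted p = 0.016) did.

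The neutrophil chemokines Cxcl1 and Cxcl3 gave the same picture at lower depth. Cxcl1 had 8.32 and 7.01 CPM in P against 4.33 and 3.04 CPM in Z (1.07 ± 0.29), and lost its call without P_1 or without Z_2 (log2 0.85 to 1.36 over the 4 omissions). Cxcl3 had 18.2 and 20.2 CPM in P against 10.8 and 9.76 CPM in Z (0.91 ± 0.23), and lost it without Z_2. Csf3, the granulocyte growth factor, had 4.65 and 4.48 CPM in P against 0.525 and 1.99 CPM in Z (1.79 ± 0.43), and its call rested on Z_1 (log2 1.22 to 3.13). The calls at Ccl3, Il1a, Il1b and Nos2, and the second Ccl5 peak, were also lost when 1 or more libraries were left out. Il1rn, the antagonist of the interleukin-1 receptor, was the gene called lower, with 1.37 and 1.23 CPM in P and 2.62 and 4.51 CPM in Z (-1.47 ± 0.39, lost without P_2 or Z_2). The large start peaks of Tnf (0.21 ± 0.10) and Cxcl2 (0.11 ± 0.10) did not pass the test. With 1 library left out, 6 to 10 peaks of the list were called higher and 0 or 1 lower. The mitochondrial covariate left 3 higher, at Ccl4 and the pair at Ccl5 (median 0.37).

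**Figure D3:**
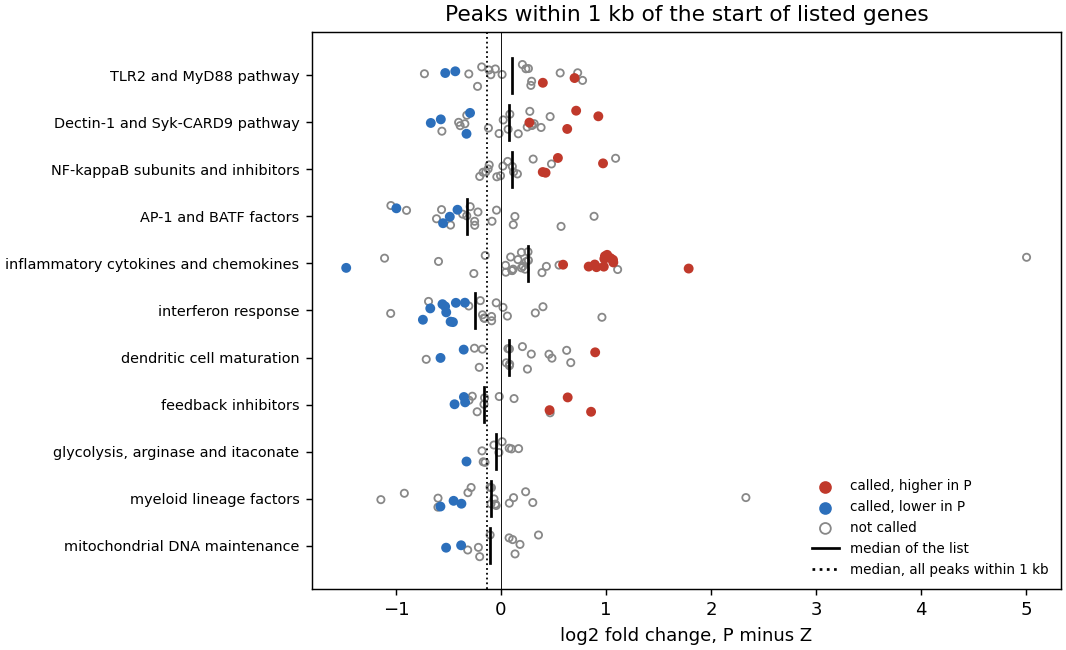
Log2 fold change P minus Z (x axis) of every tested peak within 1 kb of the start of a listed gene, by gene list (y axis); filled points are called, open points are not, the solid mark is the list's median and the dotted line the median of all peaks at gene starts. The inflammatory list has 12 called higher and 1 lower and the interferon list 0 and 9; under total-count scaling with the highest peaks kept, the interferon, AP-1 and myeloid lineage medians turn positive.

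Promoter sequence was available for these genes in the RefSeq promoter table (GRCm38.p6), and the windows below are shown as examples of the letters searched for at named peaks. The NF-kappaB letters also occur in windows of peaks lower in P, at Cxcl10, Cyld, Dusp5, Ifit2, Map3k7 and Oas3. They are absent from several windows of peaks higher in P, among them Card9, Ccl3, Clec4e, Il1a, Il1b and Socs3. The interferon response letters are absent from the windows of Cmpk2, Ifit2 and Irf1, in peaks lower in P. Each is the 250 bases before the start, 5′ to 3′ on the gene's strand, with motif matches in capitals. The first 4 belong to peaks higher in P: Il6 (chr5:30012864-30013113, plus strand), Cxcl1 (chr5:90890995-90891244, plus strand), Tnfaip3 (chr10:19011964-19012213, minus strand) and Tnip1 (chr11:54962941-54963190, minus strand). Capitals there mark the NF-kappaB letters GGGNNNTTCC on either strand, overlapping matches joined, and in Il6 also the AP-1 letters TGANTCA near the first base. The last 2 belong to peaks lower in P, Ifit1 (chr19:34640639-34640888, plus strand) and Isg15 (chr4:156200819-156201068, minus strand), and capitals there mark the interferon response letters TTTCNNTTTC on either strand.
Il6: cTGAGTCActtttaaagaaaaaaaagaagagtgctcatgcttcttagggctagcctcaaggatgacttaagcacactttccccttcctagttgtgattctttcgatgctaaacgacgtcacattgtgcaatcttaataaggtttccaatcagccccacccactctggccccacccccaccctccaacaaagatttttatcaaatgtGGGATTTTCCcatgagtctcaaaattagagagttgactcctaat
Cxcl1: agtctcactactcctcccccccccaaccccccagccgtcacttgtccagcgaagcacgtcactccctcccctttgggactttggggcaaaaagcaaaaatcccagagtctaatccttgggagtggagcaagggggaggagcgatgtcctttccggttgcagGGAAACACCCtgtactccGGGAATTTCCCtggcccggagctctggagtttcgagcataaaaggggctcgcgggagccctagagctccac
Tnfaip3: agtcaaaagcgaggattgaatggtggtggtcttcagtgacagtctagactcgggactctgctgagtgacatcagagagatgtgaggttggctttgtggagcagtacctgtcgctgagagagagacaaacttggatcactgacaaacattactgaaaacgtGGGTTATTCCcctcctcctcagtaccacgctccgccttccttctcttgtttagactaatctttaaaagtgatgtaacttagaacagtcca
Tnip1: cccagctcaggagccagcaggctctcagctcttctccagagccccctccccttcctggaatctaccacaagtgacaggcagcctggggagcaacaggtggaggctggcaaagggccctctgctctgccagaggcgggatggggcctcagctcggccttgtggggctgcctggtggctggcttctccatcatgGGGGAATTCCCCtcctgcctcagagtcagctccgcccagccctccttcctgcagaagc
Ifit1: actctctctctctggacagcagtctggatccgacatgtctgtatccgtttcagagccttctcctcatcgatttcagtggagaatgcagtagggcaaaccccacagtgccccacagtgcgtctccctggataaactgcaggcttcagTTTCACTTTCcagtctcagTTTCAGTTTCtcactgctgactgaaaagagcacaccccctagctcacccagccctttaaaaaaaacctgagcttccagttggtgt
Isg15: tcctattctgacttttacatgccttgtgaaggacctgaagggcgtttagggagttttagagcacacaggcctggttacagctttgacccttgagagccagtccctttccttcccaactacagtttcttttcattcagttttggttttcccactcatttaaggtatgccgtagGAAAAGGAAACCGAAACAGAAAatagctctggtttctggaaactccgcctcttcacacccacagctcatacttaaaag
The Il6 match begins 44 bases before the start and those of Ifit1 begin 104 and 85 bases before it. Isg15 has 3 overlapping matches on the opposite strand.

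Across the table, GGGNNNTTCC on either strand was found in 4.65% of all 32851 windows, in 5.56% of the 14342 windows in tested peaks, in 10.7% of the 364 in peaks higher in P and in 5.67% of the 2541 in peaks lower in P. TGANTCA was found in 6.75% of all windows, 4.88% of those in tested peaks, 9.62% in higher and 4.29% in lower peaks. GAGGAAGT, letters bound by the myeloid factor PU.1, was found in 2.44% of all windows and in 2.96%, 5.77% and 2.40% of those in tested, higher and lower peaks. GCGNGGGCG, bound by factors of the EGR family, was found in 4.70% of all windows, 8.81% of those in tested peaks, 4.40% in higher and 11.3% in lower peaks. TTTCNNTTTC was found in 2.98% of all windows and in 2.81%, 1.65% and 3.15% of those in tested, higher and lower peaks, and the cAMP response letters TGACGTCA in 1.55%, 2.64%, 1.37% and 3.11%. These shares describe letters in windows and are not tests of binding.

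Most peaks higher in P lay away from gene starts, and several clustered around single genes. Counting called peaks within 100 kb of their nearest protein-coding gene, 67 genes had at least 6 higher in P and 25 at least 6 lower. This description was made after the values were seen. Of all tested peaks 5.11% were called higher, and of those over 10 kb from a gene start 5.62%. The former include Il6 (11 of 31 peaks), Nfkb1 (12 of 56), Tnfaip3 (10 of 45), Creb5 (14 of 62), Slc1a2 (13 of 31), Csf2 (7 of 13), Il10 (7 of 36), Il1b (7 of 20), Dcn (7 of 11), Syk (6 of 37) and Socs3 (6 of 16). None of these 11 genes had a peak called lower within that distance. With the mitochondrial covariate few of these calls stayed: 4 each at Tnfaip3 and Dcn, 3 at Slc1a2 and 2 each at Il6, Il10 and Socs3. Nfkb1, Il1b and Syk kept 1 each, and Creb5 and Csf2 kept 0. The peaks with the lowest p of these loci are described next, and their p-values were used to choose them.

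Tnfaip3 encodes A20, an enzyme that limits NF-kappaB signalling. A peak 83158 bp from its start (chr10:19098568-19099934) had 22.7 and 18.9 CPM in P, 2.89 and 1.78 CPM in Z and 1.64 and 1.45 CPM in control, a log2 difference of 3.18 ± 0.25. Its PS and ZS levels were 16.8 and 18.6 CPM and 4.95 and 4.24 CPM (1.95 ± 0.21, edgeR adjusted p = 4.7e-14), in libraries the choice did not use. Over the 18 groups, the 7 that contain PAM held the 7 highest means, 15.8 to 20.8 CPM, and their SDs of 0.129 to 2.64 CPM leave most neighbours in that order indistinguishable. The next were LH at 8.56 ± 0.908 and L at 8.07 ± 0.716 CPM (SD, n = 2), which hold the ligand labelled LPS, and all others were at 4.85 CPM or below. With the mitochondrial covariate the difference was 3.46 ± 0.41.

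Il6 showed the same at a peak 39667 bp from its start (chr5:29972674-29973447), with 9.77 and 12.9 CPM in P, 2.23 and 1.26 CPM in Z and 1.75 and 2.22 CPM in control (2.73 ± 0.31, and 3.51 ± 0.50 with the covariate). Its PS minus ZS difference was 1.56 ± 0.27. At Il10, which encodes an anti-inflammatory cytokine, a peak 21760 bp away had 14.0 and 18.9 CPM in P, 5.51 and 5.67 CPM in Z and 0.983 and 1.74 CPM in control (1.55 ± 0.21). Both ligands lay above control there, and with the covariate the difference was 0.89 ± 0.37 and no longer passed (edgeR adjusted p = 0.25). At Csf2, which encodes GM-CSF, the factor added to these cultures, a peak 34402 bp away had 15.3 and 18.9 CPM in P, 8.14 and 7.45 CPM in Z and 4.70 and 5.21 CPM in control (1.14 ± 0.19; 0.71 ± 0.32 with the covariate, adjusted p = 0.31). At Nfkb1, the p105 and p50 subunit, a peak inside the gene had 9.61 and 9.75 CPM in P and 3.94 and 3.15 CPM in Z (1.46 ± 0.27). With the covariate it was 1.59 ± 0.46 and did not pass (edgeR adjusted p = 0.051). Within Syk, the kinase downstream of Dectin-1, a peak had 34.6 and 42.9 CPM in P, 17.3 and 17.1 CPM in Z and 10.4 and 14.8 CPM in control (1.17 ± 0.14). At Slc1a2, a glutamate transporter, the level was 18.1 and 20.4 CPM in P, 3.94 and 4.93 CPM in Z and 1.86 ± 0.924 CPM (SD, n = 2) in control (2.10 ± 0.22).

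Other loci are plain in the control. At Dcn, the proteoglycan decorin, the control was near 0 (0.219 and 0.193 CPM), Z had 3.41 and 3.04 CPM and P 13.7 and 13.5 CPM (2.08 ± 0.25). The peak with the lowest p among those near Mrpl39, a mitochondrial ribosomal protein, lay 26007 bp away and outside protein-coding genes. It had 80.9 and 75.8 CPM in P, 36.6 and 36.7 CPM in Z and 19.3 and 18.1 CPM in control (1.09 ± 0.10). Mrpl39 is named only as the nearest protein-coding gene. Non-coding genes were not considered in naming, and which gene this peak belongs to was not tested. In the other direction, Flrt2, a membrane protein of cell adhesion, had 27.5 and 27.2 CPM in P and 57.9 and 68.9 CPM in Z near its start (-1.22 ± 0.11), where control stood at 66.6 and 63.4 CPM. Depleted zymosan overlapped the unstimulated level at this peak and PAM lay below it, and the 7 groups with PAM held the 7 lowest means of the 18 (25.4 to 30.5 CPM).

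**Figure D4:**
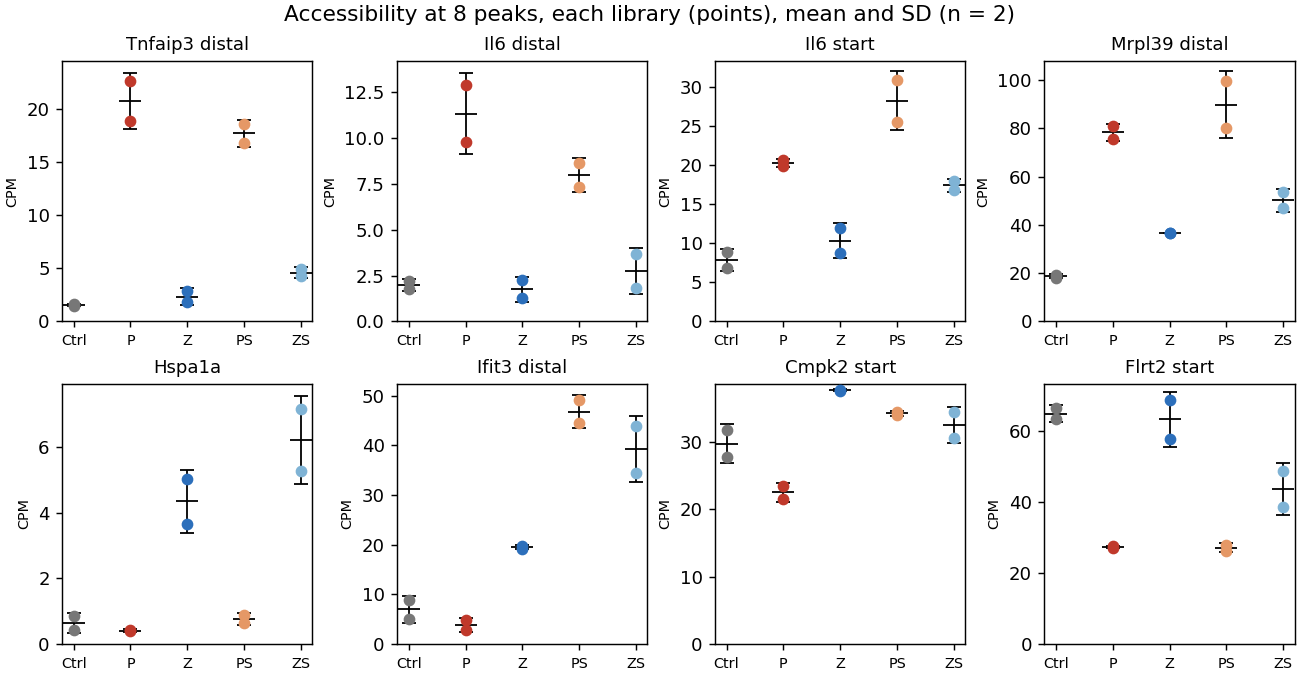
CPM (y axis, from 0) in each library of Ctrl, P, Z, PS and ZS (x axis) at 8 peaks; points are libraries, and the bars give the mean and SD (n = 2). At the distal Tnfaip3 and Il6 peaks P and PS stand above Z and ZS, and at the distal Ifit3 peak P is lowest while PS and ZS overlap.

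Of 19 peaks at the starts of 12 genes of NF-kappaB subunits and inhibitors, 4 were called higher in P and 0 lower, against 2.69% and 14.4% of all gene-start peaks. Of the 19, 12 had a positive difference, the median was 0.11 (-0.0037 without P_1), and the mitochondrial covariate left 1 called. Tnfaip3 had 20.7 and 18.8 CPM in P and 9.19 and 10.8 CPM in Z at 1 start, and control was at 4.37 and 4.15 CPM. The difference was 0.97 ± 0.17 (edgeR adjusted p = 6.0e-06), and 1.34 with the covariate (edgeR adjusted p = 0.0025). Its other start peak (chr10:19013918-19016023) was weaker, at 0.42 ± 0.13 (0.35 to 0.49 over the 4 omissions). With the covariate that peak did not pass (0.39 ± 0.21, edgeR adjusted p = 0.45). Nfkb2, the p100 and p52 subunit, had 77.5 and 77.9 CPM in P against 63.5 and 54.7 CPM in Z (0.40 ± 0.10, lost without Z_2), and Nfkbib, an inhibitor that shares its peak with Sirt2, differed by 0.54 ± 0.11. Without Z_2, 2 of the 19 peaks were called. Among 14 peaks at 12 feedback inhibitors of signalling, 3 were higher and 3 lower in P. Socs3, which blocks cytokine receptor signalling, had 43.7 and 41.7 CPM in P against 28.7 and 26.3 CPM in Z (0.64 ± 0.12), and Tnip1, a partner of A20, had 9.08 and 9.82 against 5.77 and 4.72 CPM (0.86 ± 0.24, lost without P_2 or Z_2). Dusp2, a MAP kinase phosphatase, was the other one higher (0.46 ± 0.12). Dusp5, Zfp36 and Cyld were the 3 lower, by 0.34 to 0.44 on the log2 scale, and each lost its call when a Z library was left out and under total-count scaling.

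No difference was called at the receptors of the 2 ligands. Tlr2 had 27.2 and 24.9 CPM in P and 27.4 and 28.9 CPM in Z (-0.11 ± 0.14, edgeR adjusted p = 0.67). Clec7a had 14.0 and 16.4 CPM in P and 16.7 and 12.3 CPM in Z at its start (0.08 ± 0.18, edgeR adjusted p = 0.83), and its second peak overlapped between the groups as well. In the TLR2 and MyD88 list, 2 of 20 peaks were called higher and 2 lower, against 2.69% and 14.4% of all gene-start peaks. Cd14, a co-receptor of Toll-like receptors, had 43.9 and 44.1 CPM in P against 23.2 and 30.5 CPM in Z (0.70 ± 0.13, edgeR adjusted p = 1.6e-05; control 26.3 and 23.2 CPM), and Irak3, an inhibitory IRAK, differed by 0.40 ± 0.12 (lost without P_1, P_2 or Z_2). The kinases Irak4 (-0.43 ± 0.10, lost without Z_1) and Map3k7 (-0.53 ± 0.10) were lower, neither of them under total scaling. In the Dectin-1 list, 4 of 26 peaks were higher and 4 lower, against the same shares. Clec4e, the receptor Mincle, had 46.1 and 43.8 CPM in P, 27.3 and 27.4 CPM in Z and 13.8 and 17.2 CPM in control (0.72 ± 0.13), and Fcer1g, its signalling chain, had 11.9 and 10.5 against 6.04 and 5.77 CPM (0.93 ± 0.23). Card9 (0.63 ± 0.17, lost without P_2) and Malt1 (0.27 ± 0.09, lost without P_1 or Z_1) were the other members higher in P. With the mitochondrial covariate this list had 0 peaks called higher and 3 lower. Clec4e (0.52 ± 0.22), Fcer1g (1.06 ± 0.40), Card9 (0.70 ± 0.29) and Malt1 (0.07 ± 0.15) then did not pass (edgeR adjusted p = 0.25, 0.18, 0.25 and 0.91).

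The EGR factors, early-response genes placed in the same list, were lower with PAM, though under total-count scaling Egr1 turned to 0.03 and none passed. Egr3 had 17.5 and 20.1 CPM in P, 35.2 and 25.1 CPM in Z and 24.6 and 27.2 CPM in control (-0.67 ± 0.14, edgeR adjusted p = 1.1e-04), and lost its call without Z_1 (-0.87 to -0.39). Egr2 had 21.4 and 22.8 CPM in P and 30.8 and 34.6 CPM in Z (-0.57 ± 0.13, lost without Z_2), and Egr1 differed by -0.33 ± 0.10, a difference that passed in 1 of the 4 omissions. All 3 passed with the mitochondrial covariate (log2 -0.83, -0.88 and -0.60). The remaining peak called lower in that list, at Bcl10, differed by -0.29 ± 0.08. AP-1 and BATF genes had 0 of 21 peaks higher and 4 lower (Jund, Maff and a pair at Fosb), near the 14.4% lower among all gene-start peaks, with a median of -0.33 that total-count scaling moved to 0.03 with 2 called higher and 0 lower. Jund had 54.4 and 52.3 CPM in P and 74.2 and 68.1 CPM in Z (-0.41 ± 0.10, lost without Z_1). The mitochondrial covariate left 0 called. In PS against ZS, 8 of the 21 were called lower and 0 higher, against 8.12% lower and 2.05% higher among all gene-start peaks. With the 24 highest peaks left out, total scaling gave a median of -0.26 and 2 called lower.

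Starts of interferon-stimulated genes were less open with PAM than with depleted zymosan under TMM scaling, a direction that total-count scaling turned. Of 24 peaks at 18 genes, 9 were called lower and 0 higher (median -0.25, 5 of 24 positive), against 14.4% lower among all gene-start peaks. Total-count scaling gave a median of 0.10 with 3 called higher and 1 lower, whereas without the 24 highest peaks it gave -0.18 with 1 higher and 8 lower. With the mitochondrial share as a covariate 1 was called lower and 0 higher (median -0.30). Omitting 1 library left 2 to 8 called lower and 0 or 1 higher. Cmpk2, a mitochondrial nucleotide kinase next to Rsad2, had 23.5 and 21.5 CPM in P and 37.5 and 37.8 CPM in Z (-0.74 ± 0.12, edgeR adjusted p = 1.3e-06; control 31.8 and 27.7 CPM), and its call held in each omission, with the covariate and under total scaling (-0.39). Isg15, the ubiquitin-like modifier, had 12.5 and 12.1 CPM in P and 16.9 and 19.1 CPM in Z (-0.56 ± 0.15), with control at 8.85 and 10.8 CPM. Rsad2, the antiviral enzyme viperin, had 15.6 and 15.0 against 21.3 and 22.5 CPM (-0.52 ± 0.14), and Ifit3, an RNA-binding antiviral protein, 24.9 and 19.9 against 31.2 and 31.1 CPM (-0.48 ± 0.13). These 3, and the start peaks of Ifit1, Ifit2, Irf1, Oas3 and Cxcl10, lost their calls under total scaling and when 1 or more libraries were left out.

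Larger interferon-gene differences lay beside the starts. A wide peak 4282 bp from the Ifit3 start, inside Ifit2 (chr19:34572687-34579247), had 4.88 and 2.82 CPM in P, 19.2 and 19.7 CPM in Z and 8.85 and 5.02 CPM in control (-2.34 ± 0.17, edgeR adjusted p = 1.3e-24). P held the lowest mean of the 18 groups and control the next, and Z, at 19.4 ± 0.397 CPM (SD, n = 2), lay between control and the ligands labelled LPS, SeV and 3',3'-cGAMP, which were at 51.0 to 63.2 CPM. A peak within Ifit1 had 3.59 and 4.04 CPM in P, 12.9 and 16.6 CPM in Z and 3.82 and 5.79 CPM in control (-1.95 ± 0.20), so that P overlapped control and Z lay above it. At Rsad2 a peak over the gene body had 31.4 and 34.7 CPM in P and 50.3 and 56.9 CPM in Z (-0.70 ± 0.10). All 3 kept their calls without each library, with the covariate (-1.82, -1.66 and -0.71) and under total scaling (-1.99, -1.60 and -0.34). These 3 peaks were singled out after their values were seen.

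Lineage and metabolic genes differed little. Of 20 peaks at myeloid lineage factors, 0 were higher and 3 lower (Klf4 and Irf4 among them; median -0.10), close to the 14.4% lower among all gene-start peaks, and total-count scaling turned this to 3 higher and 0 lower. In the dendritic cell maturation list, 1 of 19 peaks was higher, at the actin-bundling gene Fscn1 (0.90 ± 0.22, lost without P_1 or Z_2), and 2 were lower, at Il15 and Il15ra. In the glycolysis, arginase and itaconate list, 1 of 10 was lower, at the glucose transporter Slc2a1 (-0.33 ± 0.12), which total-count scaling moved to 0.03. Genes that maintain mitochondrial DNA had 2 of 11 peaks lower, also near that share, at Tfam (-0.52 ± 0.13) and Tfb1m (-0.38 ± 0.09), neither with the covariate or under total scaling. Markers of other cells had few peaks at gene starts. The 2 at neutrophil genes summed to 43.7 to 51.9 CPM in P and 39.0 to 43.7 CPM in Z, and the 1 at a B cell gene, Ms4a1, had 1.14 to 1.37 CPM in P and 2.89 to 3.15 CPM in Z. The part of these cells in the results was not tested.

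The peaks with the most extreme fitted differences were small ones. The 5 highest had 0 counts in both Z libraries, so that their fold is a lower bound, against a floor of 3 counts over the Z group. In Macc1 a peak had 33 and 44 counts in P (2.52 and 3.18 CPM), at least 16.3-fold higher, and a peak in Appl1 had 23 and 54 counts (1.75 and 3.90 CPM) with the same bound. The others lay near Stk31, Rgs18 and Dnajc13. At the lower end, Hspa1a, the inducible heat shock protein Hsp70, had 0.381 and 0.433 CPM in P, 3.67 and 5.04 CPM in Z and 0.437 and 0.868 CPM in control (-3.39 ± 0.52, edgeR adjusted p = 1.4e-07; 5 and 6 counts against 28 and 48). In the SeV groups it had 0.627 and 0.888 CPM in PS and 5.27 and 7.19 CPM in ZS (-3.00 ± 0.43, edgeR adjusted p = 2.2e-08). The 4 groups that contain depleted zymosan held the 4 highest means of the 18, 4.05 to 6.23 CPM, against at most 2.78 CPM elsewhere. Hspa1a has a near-identical neighbouring copy, so the division of reads between them is uncertain. The other 4 lay near Dhrs3, AU021092, Gorab and, at 673149 bp, Serpinb8.

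Among peaks at gene starts, the 6 highest were at Zfp811, Cpeb2, Pigt, Gm38499, Srfbp1 and Erich2. Zfp811, a zinc finger gene, had 4.58 and 5.27 CPM in P and 0.262 and 0.210 CPM in Z, from 2 counts in each Z library (4.34 ± 0.60, edgeR adjusted p = 4.1e-09). It was also above control, at 0.109 and 0.868 CPM, and the next means over the groups were 3.90 CPM in PH and 3.87 CPM in L against 4.93 CPM in P. Erich2 had 7.63 and 6.64 CPM in P and 1.18 and 1.26 CPM in Z (2.53 ± 0.40), and 4.96 and 4.48 against 2.15 and 0.553 CPM in PS and ZS (1.84). Among the 6 lowest were those at Dlgap5, Chmp4c, Cndp2, Lipg and Taar9. Cndp2, a dipeptidase, had 0.763 and 1.59 CPM in P and 7.35 and 5.87 CPM in Z (-2.47 ± 0.40), above the 2.29 and 0.868 CPM of control. Calls at Pigt, Gm38499, Chmp4c, Lipg and Taar9 were lost when 1 or more libraries were left out.

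The same swap of ligands in the presence of SeV uses 4 other libraries. Between PS and ZS, 8551 peaks were called (7.16% of those tested), 4996 higher in PS (4.18%) and 3555 lower (2.98%). Total-count scaling gave 11480 higher and 1757 lower, and 5126 and 3583 without the 24 highest peaks. Of the 6109 peaks higher in P than Z, 88.9% had the same sign there and 2049 (33.5%) were called in the same direction, against 63.0% with the same sign among all tested peaks. Of the 7153 lower in P, 81.7% had the same sign and 1422 (19.9%) were called in the same direction. Calls in opposite directions were made at 7 and 22 peaks. These shared calls are 41.0% of the peaks higher in PS and 40% of those lower. Across peaks the Pearson correlation of the 2 differences was 0.339 for all tested peaks and 0.631 for those called in P against Z, a description over peaks that share libraries. When ZS_1, the ZS library with the high mitochondrial share, was left out, 87.5% and 77.1% kept the sign (61.6% of all peaks), and 1363 and 728 were called.

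The difference between ligands itself differed with SeV at 645 peaks (0.54% of those tested), by the interaction term of the same fit. At 149 it was higher without SeV (0.125%) and at 496 lower (0.415%), a balance that total-count scaling turned to 209 higher and 135 lower. Of the 645, 471 had opposite signs in the 2 comparisons. The lowest interaction p belonged to the peak beside Ifit3, which had 49.1 and 44.5 CPM in PS and 43.9 and 34.5 CPM in ZS. PAM thus had less signal than depleted zymosan there without SeV (-2.34 ± 0.17), while with SeV the groups overlapped (0.26 ± 0.12, edgeR adjusted p = 0.18; interaction -2.60 ± 0.21, edgeR adjusted p = 1.4e-20). The Ifit1 peak gave -1.95 and 0.33 (interaction -2.29 ± 0.25). Over Rsad2 the direction turned, with 173 and 146 CPM in PS against 101 and 104 CPM in ZS (0.64 ± 0.09, edgeR adjusted p = 4.8e-09; interaction -1.34 ± 0.13). The Cmpk2 start showed 34.5 and 34.0 CPM in PS and 30.6 and 34.4 CPM in ZS (0.07 ± 0.12; interaction -0.82 ± 0.17, edgeR adjusted p = 0.0035). Of the interferon list's 24 start peaks, 0 were called in either direction in PS against ZS (median 0.01). In the opposite sense, a peak in Sec22c, a gene of vesicle transport, had 31.7 and 31.3 CPM in P and 16.1 and 12.5 CPM in Z (1.15 ± 0.16), but 12.9 and 14.3 CPM in PS and 23.5 and 22.4 CPM in ZS (-0.75 ± 0.15; interaction edgeR adjusted p = 1.2e-10).

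The inflammatory list gave 4 of 36 peaks higher and 2 lower in PS against ZS, where 2.05% of all gene-start peaks were higher and 8.12% lower. Ccl5 was among the higher, with 129 and 110 CPM in PS and 56.4 and 49.4 CPM in ZS (1.17), a difference close to that without SeV at a level several times higher (interaction adjusted p = 0.87). The start of Il6 had 28.2 ± 3.79 CPM in PS and 17.4 ± 0.849 CPM in ZS (SD, n = 2; 0.70 ± 0.14, edgeR adjusted p = 9.4e-05). At Clec4e the PS libraries, 28.0 and 27.3 CPM, were close to the ZS libraries, 24.2 and 26.2 CPM (0.13 ± 0.12, edgeR adjusted p = 0.62), but the difference between the 2 comparisons did not pass (interaction 0.58 ± 0.18, edgeR adjusted p = 0.098).

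**Figure D5:**
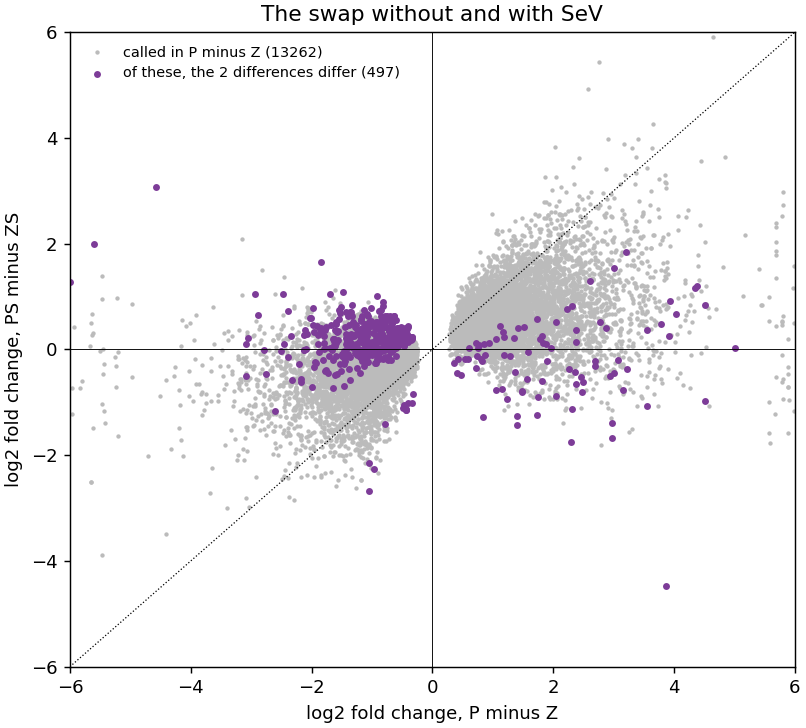
Log2 fold change PS minus ZS (y axis) against P minus Z (x axis) for the 13262 peaks called in P minus Z; each point is a peak, and the dark points are those also called in the interaction (497). Points lie mostly in the quadrants of equal sign, closer to 0 on the y axis than the dotted line of equality; 82 peaks lie outside the axes.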

How the data were processed

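ATAC-seq was deposited for 36 libraries in 18 groups of 2. The authors deposited raw counts per peak, whole numbers without normalization. Per the submitters' processing notes the tools were Bowtie2 2.2.9, MACS2, bedtools and featureCounts on build mm10. Per the labels' protocols, 12 PCR cycles were run. Duplicate removal and the shift of read ends for the transposase are not given in the sources used here, and both would move counts. Groups came from titles, and 0 columns were left unused.

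The mitochondrial peak was left out, and filterByExpr (minimum count 10) dropped 286 peaks, leaving 119464. After TMM scaling, edgeR 4.0.16 was fitted (R 4.3.3, quasi-likelihood, trended dispersion, robust) with 1 coefficient per group over all 36 libraries (18 residual degrees of freedom), for P minus Z, PS minus ZS and their interaction. P-values were adjusted by Benjamini-Hochberg over all tested peaks and called under 0.05. In data simulated for P minus Z (119005 peaks), 4-fold and 2-fold increases were recovered at 90% and 44% and decreases to 0.25 and 0.5 at 58% and 22%, with 2 false calls. Apart from the changed peaks, the simulation gave all groups the same mean per peak and used the fitted dispersion. It held no group difference in the highest peaks, so its false calls do not measure the error rate of the real comparison. CPM are counts divided by the effective library size on a common scale. Mitochondrial shares varied between libraries beyond counting error. In ZS_1 the 95% interval from counting alone (Wilson) was 58.10% to 58.13%, while ZS_2 had 51.0%. Reads have no molecular identifiers.

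Gene starts came from the RefSeq promoter table (GRCm38.p6), with both gene ends for the 46 of 200 listed genes without an entry. Comparison, lists and rules were chosen with earlier results of these data known. Named peaks are the 5 highest and 5 lowest called with a mean of at least 1 CPM and no overlap, the 6 highest and 6 lowest at gene starts, up to 4 of lowest p per list, and Tlr2 and Clec7a; others are named as chosen after their values were seen, as are loci and distal peaks. Alternatives covered scaling, filters, DESeq2 1.42.0, abundance-dependent offsets (limma 3.58.1), thinning, the mitochondrial share, a replicate block and each library left out. Some peaks that meet these rules are not reported here.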

Additional observations from a re-analysis of the deposited data

Results flagged for a closer look

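The difference between PAM and depleted zymosan was not the same with and without SeV at 645 peaks, by the interaction term (edgeR's quasi-likelihood test, adjusted p under 0.05). At an unadjusted p under 0.05 there were 13270. Of the 645, 497 were also called in P against Z and 191 in PS against ZS. Beside the peaks in the report, one near Ifi205, an interferon-induced gene, was lower in P (-1.47 ± 0.31) and had 17.2 and 15.2 CPM in PS against 8.17 and 7.10 CPM in ZS. A peak at Acod1, the itaconate enzyme, had 314 and 255 CPM in PS and 169 and 139 CPM in ZS, with a difference of 0.21 between P and Z. The mitochondrial shares differed by more between P and Z than between PS and ZS_2, and their part was not tested beyond the fit with the covariate, which called 564.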

How the results depend on the processing

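With total-count scaling the counts of called peaks were 20506 for P against Z, 13237 for PS against ZS and 344 for the interaction. With the mitochondrial share as a covariate they were 1630 and 1892 for the 2 comparisons. Thinned to the lowest depth, 8181254 counts, they were 8357, 5136 and 218. Leaving out 1 library in turn gave 6926 to 9386, 3606 to 4938 and 273 to 409, where a lone library is assumed to vary like the other groups. The interaction called 422 with abundance-dependent offsets and 339 in a fit of only the groups compared. The causes were not tested, except that thinning and omission use fewer counts or libraries. DESeq2 called 11502 in P against Z, and 930 of its 13262 calls (539 higher, 391 lower) were kept under every planned and added alternative and 2957 without each library in turn. Leaving out the 24 highest peaks, added after seeing the data, gave 13074 with TMM and 13050 with total counts.

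At the listed genes, 57 of 220 peaks within 1 kb of a start and 163 of 945 within 10 kb were called. Within 10 kb lay 31.4% of the higher and 46.4% of the lower peaks. Of 1038 alternative values for 62 named peaks, 873 kept the call, or its absence, and 164 kept the direction only. Where the main fit or the alternative called the peak, 1 value reversed: the Slc2a1 start under total-count scaling (log2 0.026). Peaks called in neither fit are counted with the 873 even where the sign changed, as at Tlr2 (-0.11, and 0.24 under total-count scaling).

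With a replicate block, 13226 peaks were called in P against Z, 8500 in PS against ZS and 647 in the interaction. The numbers did not pair the libraries: deviations of same-numbered libraries correlated at -0.013 for P and Z, and between -0.040 and 0.030 over 153 pairs of groups. Depth limits the peaks of a few counts named at the extremes.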

Other observations

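The highest peak outside the mitochondrial genome (chr1:24611386-24616337) is a well-known nuclear copy of mitochondrial DNA. It had 164233 and 146675 CPM in P, 339221 and 307258 CPM in Z, 250268 and 171169 CPM in ZS, and it followed the mitochondrial share from library to library. Another of the 24 highest peaks (chr2:98666084-98667466) did not: it had 11164 and 10792 CPM in P and 21165 and 16964 CPM in Z, but in ZS it stood at 19801 and 19949 CPM although the mitochondrial shares of those libraries were 58.1% and 51.0%.

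The gene with the most peaks lower in P within 100 kb was Gm52481 (11 of 35), on the Y chromosome. The cells are labelled as coming from female mice. The 49 tested peaks on that chromosome held 0.103% to 0.110% of the counts in the 4 libraries. Most of these counts lay in 1 peak near Gm52481 (chrY:90761948-90792810), with 0.0893% and 0.0920% in P and 0.0891% and 0.0905% in Z. A peak on the X chromosome near Mid1 (chrX:169985544-170010379) had a similar share (0.0981% and 0.0979% in P, 0.0954% and 0.0972% in Z). Its difference was also alike (-0.33 ± 0.06, against -0.34 ± 0.06 on Y). Whether reads from the X chromosome were counted on Y was not tested, and these counts do not tell the sex of the cells. Peaks near Gm40363, Sfi1 and Gm21119, also among the lower ones, lie by genes with near-identical copies, and their counts are uncertain.

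Away from interferon genes, peaks near Tspan5, a tetraspanin (9 of 19 lower), and Bach1, a repressor of haem and oxidative stress genes (6 of 29 lower), were lower in P than in Z. The Bach1 peak of lowest p had 7.86 and 7.37 CPM in P and 16.9 and 16.7 CPM in Z (-1.14 ± 0.16) and, with SeV, 23.3 and 24.8 CPM in PS against 25.5 and 25.2 CPM in ZS (-0.07, edgeR adjusted p = 0.83). Near Slc7a2, a transporter of arginine, 10 of 51 peaks were higher, 1 of them with 25.8 and 24.5 CPM in P and 8.53 and 8.50 CPM in Z (1.56 ± 0.17), and 23.0 and 20.2 against 11.5 and 10.4 CPM in PS and ZS. These loci were singled out after their values were seen. Of all tested peaks 5.11% were called higher and 5.99% lower. The mitochondrial covariate left 1 of these calls near Tspan5, 1 near Bach1 and 4 near Slc7a2.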
